A study of Mus musculus with 4 samples.

Results

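The genes of the opioid system were read out across coronal brain sections of mouse pups: 3 genes of peptide precursors (Penk, Pdyn and Pnoc) and 4 genes of opioid receptors (Oprm1, Oprk1, Oprd1 and Oprl1). These 7 genes were taken by symbol from the 19465 features of the probe panel, and each symbol matched 1 feature. The sections came from male C57BL/6J pups at postnatal day 21. Their mothers, C57BL/6J females of 8 weeks at the start, ate a diet with 2 mg/kg folic acid (FA), labelled median folate (MF, 2 sections), or with 20 mg/kg FA, labelled high folate (HF, 2 sections), from before mating through pregnancy and lactation, so that all pups were exposed before birth and through milk. The methods call the 2 sections of a diet biological replicates, and the litters they came from are not given in the sources used here.

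Opioid peptides are cut from large precursor proteins. Penk encodes proenkephalin, the source of the enkephalins, Pdyn encodes prodynorphin, the source of the dynorphins, and Pnoc encodes prepronociceptin, the source of nociceptin. Oprm1, Oprd1 and Oprk1 encode the mu, delta and kappa receptors, which the enkephalins and dynorphins bind with different preference, and Oprl1 encodes the nociceptin receptor. All 4 receptors couple to inhibitory G proteins, which lower cyclic AMP, open potassium channels and close calcium channels. In the striatum enkephalin is a classical marker of the projection neurons of the indirect pathway, which carry Drd2 and Adora2a, and dynorphin of those of the direct pathway, which carry Drd1 and Tac1.

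In GRCm38 (mm10) the genes lie apart from one another. Penk (ENSMUSG00000045573) spans chr4:4133531-4138819 on the minus strand, and Oprd1 (ENSMUSG00000050511) lies on the same chromosome at chr4:132110726-132144486, also on the minus strand. Pdyn (ENSMUSG00000027400) spans chr2:129686565-129699844 on the minus strand and Oprl1 (ENSMUSG00000027584) chr2:181715016-181720985 on the plus strand. Pnoc (ENSMUSG00000045731) spans chr14:65400673-65425472 on the minus strand. Oprm1 (ENSMUSG00000000766) spans chr10:6758506-7038198 and Oprk1 (ENSMUSG00000025905) chr1:5588466-5606131, both on the plus strand. The panel reads each gene through probe pairs against its transcript, so a level says how many probe pairs were counted and not which isoform was present. Probes of different genes capture unequally, so a level was compared only with levels of the same gene.

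Visium-FFPE counts such probe pairs as unique molecular identifiers (UMIs) in barcoded spots, each of which covers several cells. Between 3197 and 3598 spots were kept per section, with section totals of 34983708 to 90098381 UMIs, and MF replicate 1 was the deepest. Levels are given in CPM, the UMIs of a gene scaled by all UMIs of the same spots to the usual common total. Spots were clustered without the 7 genes, and 20 areas had at least 10 spots in every section, holding 76.3% to 78.6% of the spots. HF replicate 2 stood apart from the other sections in what its hypothalamus held. There Avp and Oxt, the magnocellular hormone genes, were at 2585 and 3062 CPM against at most 18.8 CPM in the other sections, and Pmch, a gene of lateral hypothalamic neurons, was at 1.56 CPM against 1524 to 3561. In sums over many cells, fewer cells of a type and less RNA per cell cannot be told apart.

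The 7 genes differed in where they were highest. Penk was 18.1 times as high in the striatum as on average over the other 19 areas, Pdyn peaked in the striatum and in the hypothalamic spots led by Agrp and Oxt, and Pnoc peaked in the reticular thalamic nucleus. Among the receptors, Oprm1 was highest in parts of the thalamus and in the medial habenula, and Oprl1 in the hypothalamus. Oprd1 was highest in cortical areas other than the subplate, while Oprk1 was low and had no single leading area.

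In the striatum Penk reached 1230 and 1175 CPM (MF) and 1278 and 1506 CPM (HF), a mean of 1297 ± 145 CPM (SD, n = 4 sections). The next area, white matter, had 163 ± 30.2 CPM, so that the lowest striatum lay far above the highest white matter of 196 CPM. On the log2 scale the striatum exceeded the mean of the other areas by 4.36 (SE 0.05). An F-test over the 20 areas in edgeR, with the section as a block, ranked Penk in place 2 of 12487 features. All 7 genes passed that test at an adjusted p under 0.05, as did 95% of all features tested, so that passing sets none of them apart.

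**Figure D1:**
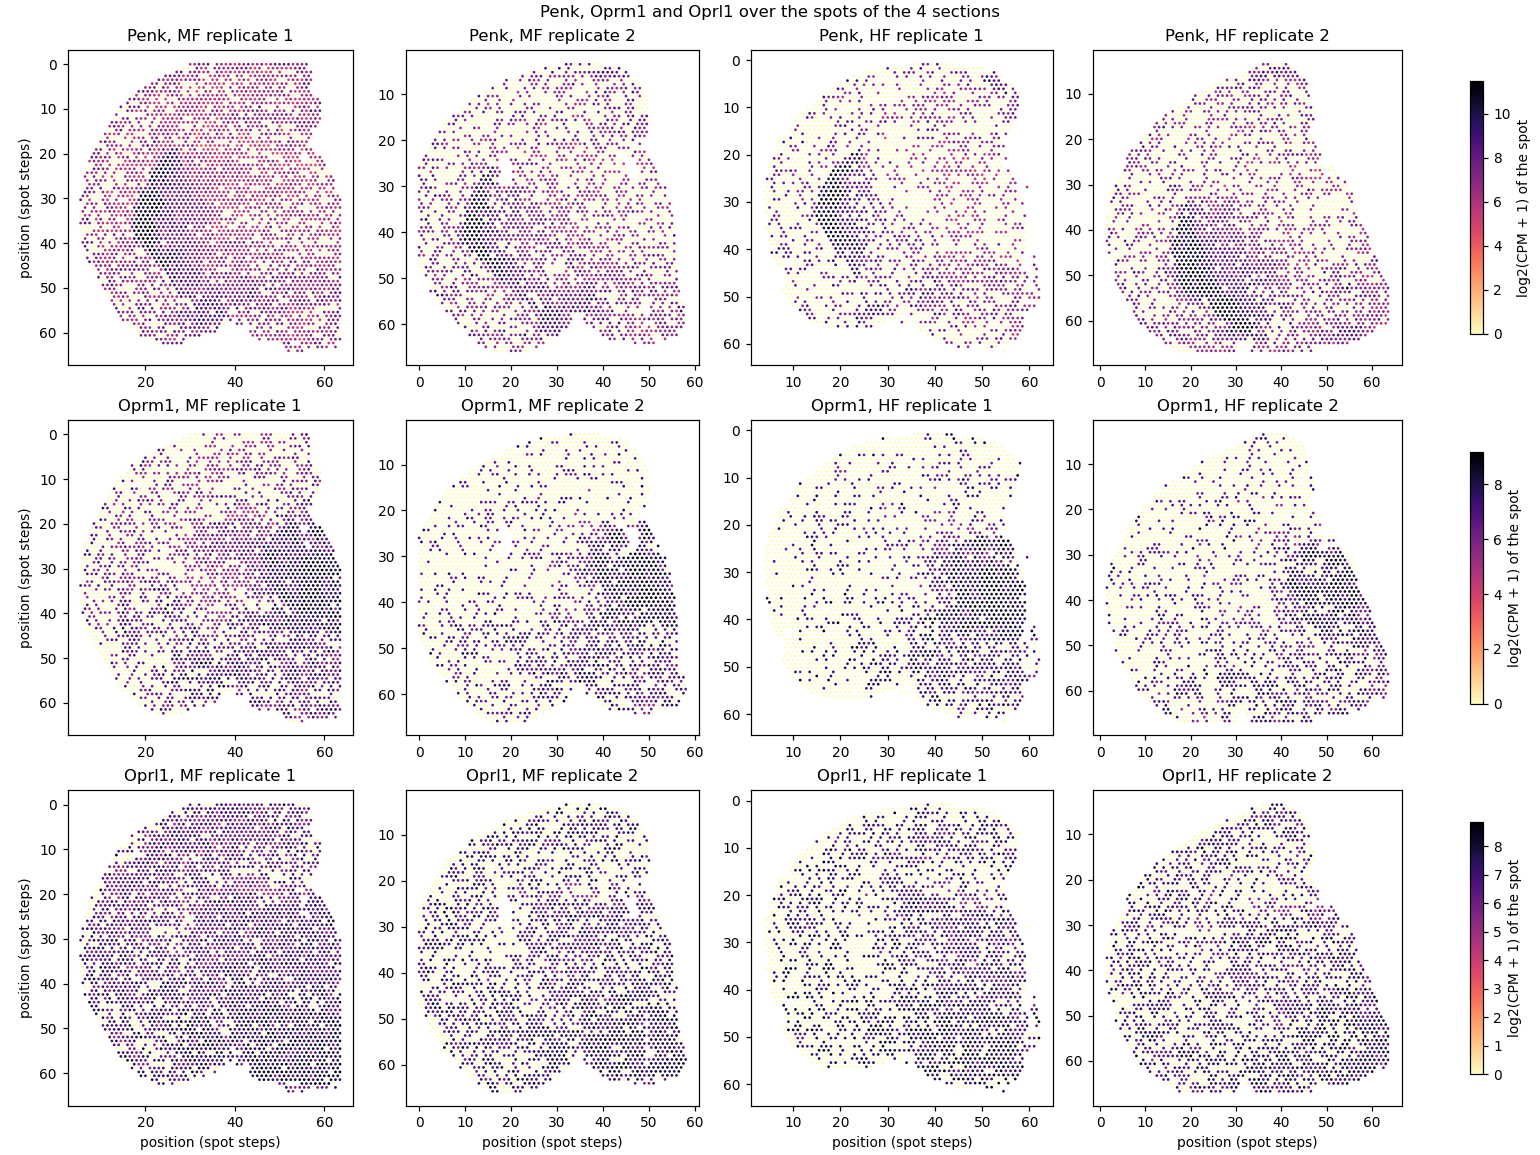
Level of Penk, Oprm1 and Oprl1 in each spot of the 4 sections, as log2(CPM + 1), with both axes in spot steps and 1 colour scale per gene. Penk marks the striatum as a dark band in every section, Oprm1 parts of the thalamus and the habenula, and Oprl1 is spread widely with more spots towards the hypothalamus at the base.

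Within the striatum Penk was present nearly throughout. Shares of spots with at least 1 Penk UMI were taken over spots with at least 5000 UMIs, each thinned to 5000. They were 95% of 180 striatum spots in MF replicate 1, 90.7% of 150 in MF replicate 2, 94.4% of 107 in HF replicate 1 and 98.1% of 216 in HF replicate 2. HF replicate 1 had 139 striatum spots in all, so its shallower ones are not in this share. In CA2-3, the area where Penk was lowest, the shares were 5.71% to 28.6%. The level still varied among striatum spots, with quartiles of 502 and 1741 CPM in MF replicate 1 and of 706 and 2109 CPM in HF replicate 2. The striatum was made up of 2 clusters, with 11 and 4 markers of the striatum among their 50 leading genes. In the first, led by Adora2a and Ppp1r1b, Penk was at 1365 ± 41.7 CPM, and in the second, led by Penk itself, Adora2a and Cyp26b1, it was at 1148 ± 438 CPM over the 4 sections. Oprm1 and Oprl1 differed between these clusters without overlap over the sections. Oprm1 was at 89.1 ± 27.9 CPM in the second (lowest 59 CPM) and at 31.5 ± 6.4 CPM in the first (highest 39.7 CPM), and Oprl1 at 107 ± 7.4 and 72 ± 12 CPM.

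Outside the striatum Penk was highest next to it, with no even slope beyond. Spots 1 step from the nearest striatum spot held 171 to 258 CPM over the sections, spots 2 steps away 91.1 to 143 CPM, those 3 to 4 steps away 105 to 145 CPM, and spots 9 or more steps away 54.7 to 77.9 CPM. Adora2a, the adenosine receptor gene of the same striatal neurons, went from 16.4 to 25.9 CPM at 1 step to 4.4 to 6.22 CPM at 9 or more. The mean of Penk was 196 CPM in the nearest and 68.6 CPM in the farthest spots, and that of Adora2a 19.6 and 5.24 CPM. RNA of an abundant peptide gene was also counted far from its neurons on these slides. Pmch, in the 3 sections where it was abundant, stood outside the hypothalamus and ependyma at a median of 18.7% of its whole-section level (lowest 2.63%, highest 92.7%, over 51 pairs of an area and a section). Penk in CA2-3 stood at 11.8% to 21.7% of its whole-section level, and in cortex layer 2-3 at 43.9% to 80.4%. The range of Pmch pools many areas. In CA2-3 alone Pmch stood at 10.2% and 11.3% in MF and 2.63% in HF replicate 1. Penk stood at 21.5%, 21.7% and 12.6% in CA2-3 of the same sections. In cortex layer 2-3 of these sections Pmch stood at 9.92% to 20.3%. How much of the Penk counted in areas with low levels came from elsewhere on the slide was not tested.

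**Figure D2:**
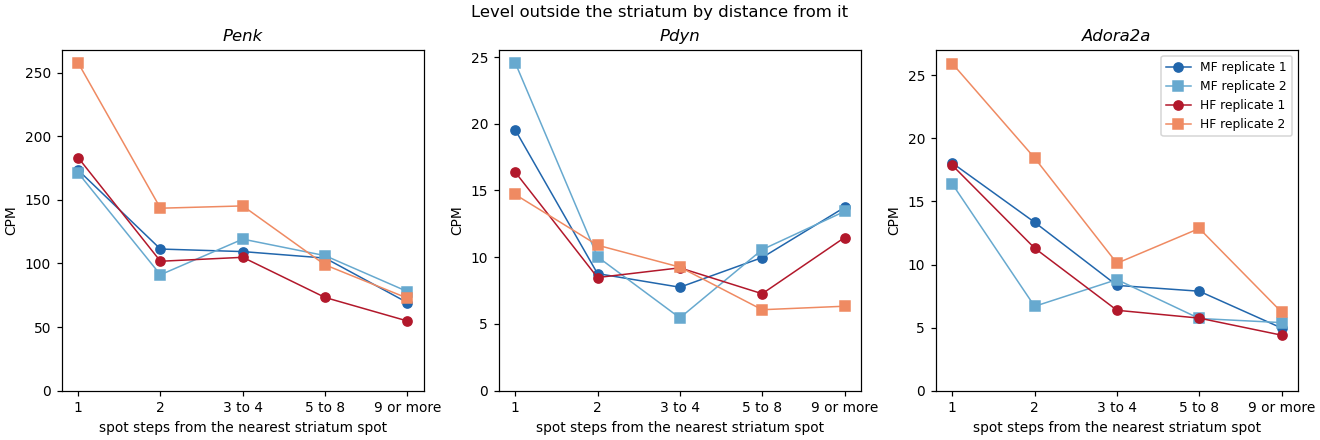
Level in CPM of Penk, Pdyn and Adora2a in spots outside the striatum, by the number of spot steps to the nearest striatum spot, 1 line per section. Penk and Adora2a were highest at 1 step in all 4 sections, and Penk in HF replicate 2 was the highest there at 258 CPM.

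In the hypothalamus outside the spots led by Agrp and Oxt, Penk was at 156 ± 26 CPM. White matter, hypothalamus, meninges and the reticular thalamic nucleus (109 ± 14 CPM) followed the striatum in that order, and the ranges of neighbours in this order overlapped. In the cortex Penk was at 80.4 ± 8.2 CPM in layer 2-3 and at 41.5 ± 3.2 CPM in layer 5, and the 2 ranges did not overlap.

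Pdyn had 2 peaks of like height. In the striatum it was at 79.3 and 72 CPM (MF) and at 82.7 and 61.8 CPM (HF). In the hypothalamic spots led by Agrp and Oxt it was at 58.7, 84.2, 79.4 and 38.9 CPM in the same order. The ranges overlapped, and the lowest of these values came from 17 spots of HF replicate 2, against 45 to 130 such spots in the other sections. The leading genes of these hypothalamic spots included Avp, Ghrh and Pomc, the last of which is the precursor of beta-endorphin, an opioid peptide outside the 7 genes. Avp and Oxt were abundant there only in HF replicate 2, at 4362% and 4178% of whole-section levels of 469 and 638 CPM. In the other sections Avp was at 29.8% to 163% of 2.64 to 11.3 CPM. Oxt was at 0 to 373% of 0.699 to 4.1 CPM. For Pdyn all other areas lay well below. The ependyma was at 22 ± 5.8 CPM, cortex layer 5 at 21.9 ± 3.5 CPM and the rest of the hypothalamus at 18.3 ± 8.4 CPM.

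In the hippocampus Pdyn had its highest mean in the dentate gyrus, whose granule cells make the dynorphin of the mossy fibre path. It was at 14.3, 14.2, 15 and 10.2 CPM in the dentate gyrus and at 3.81, 1.81, 2.03 and 1.15 CPM in CA1. Every dentate value lay above every CA1 value, though the 4 CA1 sums rest on 8 UMIs in all. Hippocampal neuropil was at 9.9, 6.62, 10.3 and 3.87 CPM in the same order. It was lower than the dentate gyrus in each section, but the ranges of these areas overlapped. Among spots with at least 5000 UMIs, each thinned to 5000, Pdyn was found in 22.2% to 30.8% of striatum spots and in 4.92% to 14.3% of dentate spots.

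Pnoc was highest in the reticular thalamic nucleus, a shell of inhibitory neurons around the thalamus. It was at 52.9, 58.2, 56.9 and 54.8 CPM there, a mean of 55.7 ± 2.3 CPM. The hypothalamus followed at 35.8 ± 6.2 CPM and did not overlap with it. The striatum, where the other precursor genes peaked, was at 7.72 to 12.3 CPM. Pnoc was lowest in the thalamic spots led by Calb2 and Igkc, at 6.5 ± 4 CPM.

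Oprm1 was highest in thalamic spots and in the medial habenula. In the spots led by Calb2, which held too few markers for a thalamic division to be named, it was at 244 and 291 CPM (MF) and at 338 and 271 CPM (HF). The medial habenula followed at 199 ± 23.8 CPM and relay thalamus at 150 ± 24.7 CPM. The first 2 areas did not overlap over the sections, while the habenula and relay thalamus did, with the habenula higher in 4 of 4 sections. Relay thalamus was itself uneven. The cluster led by Gbx2 and Endou held 273 ± 55.4 CPM over the 3 sections with enough spots, and the whole of relay thalamus 134 to 187 CPM. Thinned to 5000 UMIs, 66.7% to 75.7% of the spots led by Calb2 held Oprm1, against 3.03% to 7.14% in CA2-3. In the striatum, where mu receptors are known from patches of neurons, the level was 48.3 ± 9.6 CPM.

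Oprl1 was the most widely spread of the receptors, with a 6.43-fold range of means over the areas against 59.6-fold for Penk. It was at 205, 190, 225 and 202 CPM in the spots led by Agrp and Oxt and at 166 ± 10.3 CPM in the rest of the hypothalamus, with no overlap between these areas. An unnamed cluster led by H2-Q2 and Nr5a1 stood higher still at 250 CPM, but only 1 section had 10 or more of its spots, so this value has no replicate. The dentate gyrus was lowest at 31.9 ± 5.8 CPM, while CA1 and CA2-3 were at 58.5 ± 2.3 and 61.1 ± 14.9 CPM.

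Oprd1 was highest in the cortical spots led by Trbc2 and Nxph3, at 25.1, 27.1, 23.8 and 24.7 CPM. Cortex layer 5 (22.5 ± 3.2 CPM), layer 2-3 (19 ± 2.8 CPM) and the striatum (18.8 ± 2.4 CPM) followed, each overlapping the one before it. The subplate was lower, at 9.5 ± 6.7 CPM. Areas rich in Oprm1 had little Oprd1. The thalamic spots led by Calb2 were at 3.6 ± 2.5 CPM and the medial habenula at 2 ± 1.4 CPM, the lowest of the 20 areas. Over the 20 areas the Pearson correlation of the 2 genes was -0.65 on the log2(CPM + 1) scale, as a description of areas that share the same 4 sections.

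Oprk1 was sparse, with 260 to 539 UMIs in a whole section. Its 4 highest areas were the spots led by Calb2 (24.8 ± 13.3 CPM), the subplate (22.3 ± 9.9 CPM), olfactory cortex and amygdala (20.3 ± 10.4 CPM) and the spots led by Agrp and Oxt (18.7 ± 6.8 CPM). None of these neighbours differed beyond its spread. The 44 CPM of HF replicate 1 in the first of them rests on 31 spots, and the other 3 sections were at 14.5 to 23 CPM. The cortical spots led by Trbc2 and Nxph3 were at 18.6 ± 4.7 CPM, against 2.1 ± 0.6 CPM in layer 5 and 1.1 ± 1.5 CPM in layer 2-3. Over the 4 sections together 1 UMI was counted in CA1, 5 in CA2-3 and 9 in the dentate gyrus.

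**Figure D3:**
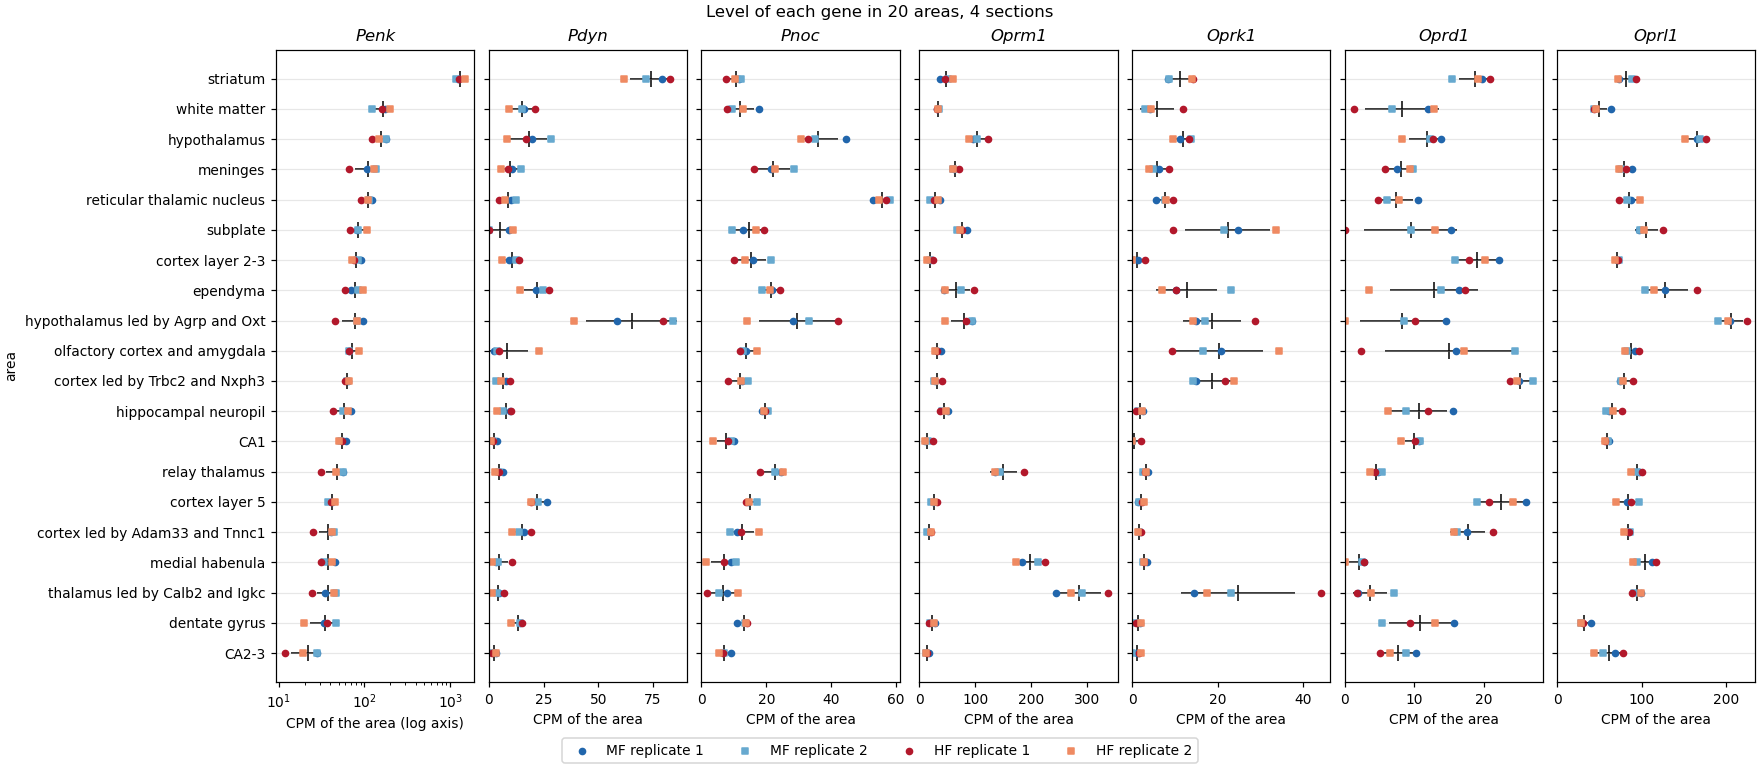
CPM of each of the 7 genes in 20 areas, ordered by the level of Penk. Points are the 4 sections, the upright tick and bar are their mean and SD, and Penk alone has a log axis; the striatum leads for Penk and Pdyn, the reticular thalamic nucleus for Pnoc, the thalamic spots led by Calb2 for Oprm1 and hypothalamic spots for Oprl1.

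Moran's I, a score of how alike neighbouring spots are, was read as deposited and put the genes in another order than their fold over areas. Penk was at 0.38 to 0.56 over the sections and always within the highest 0.97% of features. Oprm1 was at 0.32 to 0.42 and within the highest 1.41%. Pdyn was at 0.13 to 0.2, Oprl1 at 0.089 to 0.17 and Oprk1 at 0.064 to 0.11. Pnoc was at 0.066 to 0.091 and Oprd1 at 0.021 to 0.078, highest in the deepest section, MF replicate 1.

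The features whose level over the 20 areas was most like that of each gene were found by Pearson correlation of log2(CPM + 1) among 12099 features, as a description. They were Adora2a (0.91), Sh3rf2 (0.90) and Adcy5 (0.89) for Penk, and Atp6v1c2 (0.82), Gnptg (0.82) and Sesn3 (0.81) for Pdyn. For Pnoc they were Bmper (0.86), Lancl3 (0.78) and St8sia4 (0.77). Oprm1 was followed most closely by Maoa (0.93), Inpp4b (0.90) and Col25a1 (0.90), and Oprl1 by Bscl2, Gadd45gip1 and Snhg11 (0.90 to 0.91). Gap43 (0.86), Amz1 (0.85) and Cgref1 (0.84) were nearest to Oprk1, and Gda (0.85), Ngef (0.84) and Ppp1r9a (0.83) to Oprd1.

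The other genes of the pathway were described from lists of 6 genes of precursor processing, 7 of peptide breakdown, 16 of receptor signalling and 10 of receptor regulation. Their highest means were spread over many areas. The hypothalamic spots led by Agrp and Oxt were highest for 2 of the processing genes, 3 of the breakdown genes and 1 of the signalling genes, the striatum for 1 of the signalling and 2 of the regulation genes, and the thalamic spots led by Calb2 for 1 gene each of signalling and regulation. The genes named next were chosen after their values were seen. Of the processing genes, Pcsk1, a convertase that cuts precursors, was highest in the hypothalamic spots led by Agrp and Oxt at 132 ± 58.5 CPM, as was Pcsk1n. Mme, which encodes neprilysin, an enzyme that degrades enkephalin, was highest in the medial habenula at 23.8 ± 5.79 CPM against 8.15 CPM in the area after it. Adcy5, the main adenylyl cyclase of the striatum, was at 223 ± 38.8 CPM there, and Rgs9, which speeds the turning off of G proteins, at 456 ± 66.2 CPM. Kcnj5, a subunit of G-protein-gated potassium channels, was highest in the spots led by Calb2 at 34.7 ± 10.1 CPM, 12.1 times its median over areas.

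The comparison between diets asked whether high maternal FA was accompanied by other levels of these genes in the offspring. None of the 7 genes passed the threshold in any of 7 comparisons, over the whole section or within the cortex, hippocampus, thalamus, hypothalamus, striatum or dentate gyrus. Sums of UMIs in 2 HF and 2 MF sections entered edgeR's quasi-likelihood test, and a call needed an adjusted p (Benjamini-Hochberg) under 0.05 and a difference of at least 1.2-fold. Of 49 pairs of a gene and a comparison, 47 were tested, since Oprk1 was too low in the hippocampus and dentate gyrus. In edgeR 0 pairs were called and 5 had an unadjusted p under 0.05, and DESeq2 called 0. The smallest adjusted p was 0.42, for Penk in the hippocampus. With 2 sections against 2, an exact permutation test of a single gene cannot go below p = 0.333.

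Over the whole section the 2 HF sections lay on opposite sides of the MF sections for Penk and Oprm1. Penk was at 130 and 129 CPM in MF, 93.6 CPM in HF replicate 1 and 165 CPM in HF replicate 2. Oprm1 was at 65.4 and 75.7 CPM in MF, 101 CPM in HF replicate 1 and 60.6 CPM in HF replicate 2. The fitted log2 fold changes of HF over MF were -0.012 (SE 0.25) for Penk and 0.19 (SE 0.22) for Oprm1, with adjusted p of 0.99 and 0.87 in edgeR. 0 of 14971 features (0%) were called in this comparison, 1020 had an unadjusted p under 0.05, and DESeq2 called 22.

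The value for Penk rested on which HF section was kept. Without HF replicate 1 its log2 fold change was 0.35 (adjusted p = 0.0029 in edgeR), and without HF replicate 2 it was -0.49 (adjusted p = 0.00083). For Oprm1 the values were -0.21 (adjusted p = 0.12) without HF replicate 1 and 0.50 (adjusted p = 0.0034) without HF replicate 2. In such fits the lone HF section is assumed to vary like the MF sections, and 1166 and 840 features were called. The areas that carry these genes made up differing parts of the sections, and the part of this in the values was not tested. Thalamus, where Oprm1 is high, made up 18.3% and 18.8% of the spots in MF. It made up 19.5% in HF replicate 1 and 17.9% in HF replicate 2. Of all UMIs it held 20.8% and 23.2% in MF, 28.9% in HF replicate 1 and 19.4% in HF replicate 2. Striatum made up 5% and 4.56% of the spots of the MF sections, 4.35% in HF replicate 1 and 6.61% in HF replicate 2, and 34.9% to 49.5% of all Penk UMIs lay in it. Without the striatum spots Penk was at 81.1, 87.5, 62.1 and 87.9 CPM in the same order, and the log2 fold change was -0.17 (adjusted p = 0.82). HF replicate 1 had the lowest Penk of the 4 sections in 13 of the 20 areas and the highest in 0, and the highest Oprm1 in 11.

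**Figure D4:**
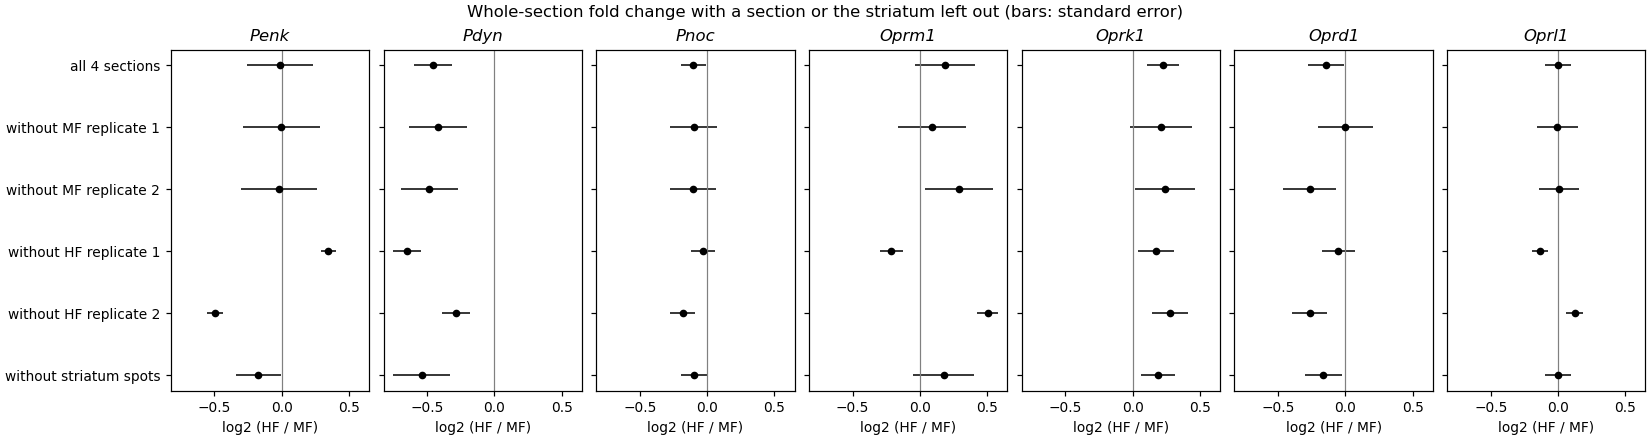
Log2 fold change of HF over MF in the whole section for each gene, with all sections, with 1 section left out and without the striatum spots; bars are standard errors. For Penk and Oprm1 the value lies on opposite sides of 0 without HF replicate 1 and without HF replicate 2. Pdyn stays below 0 and Oprk1 above 0 in each fit shown. Their sections do not overlap between the diets, as was true of 39.6% of all features, so leaving out a section could hardly change the sign.

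Pdyn, Pnoc and Oprk1 had whole-section levels that did not overlap between the diets, as was true of 39.6% of all features (21.8% with HF above MF and 17.9% with HF below). Pdyn was at 15.7 and 15.1 CPM (MF) and at 12.9 and 9.81 CPM (HF), a log2 fold change of -0.46 (SE 0.14, adjusted p = 0.70 in edgeR). Leaving out each section in turn gave -0.65 to -0.29 for Pdyn, with -0.65 from the fit without HF replicate 1. That fit keeps HF replicate 2, which had 17 of the Pdyn-rich spots led by Agrp and Oxt, against 130 and 71 in MF and 45 in HF replicate 1. The part of this in the value was not tested. Oprk1 was at 5.98 and 6.13 CPM in MF and at 7.46 and 6.8 CPM in HF, a log2 fold change of 0.23 (SE 0.12, adjusted p = 0.74). Pnoc differed by less, with 19.7 CPM in both MF sections and 17.6 and 19.3 CPM in the HF sections, and its log2 fold change of -0.10 was 0.050 with spots thinned. Oprd1 and Oprl1 overlapped, at 10.7 to 13.7 CPM and 84.4 to 103 CPM over the 4 sections.

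In the striatum the HF sections were above the MF sections for Penk and Oprk1 and below them for Pnoc, in a comparison where 6 of 11444 features (0.0524%) were called and 35.7% did not overlap (17.8% above, 17.9% below). Penk was at 1278 and 1506 CPM in HF against 1230 and 1175 CPM in MF, a log2 fold change of 0.22 (SE 0.11, adjusted p = 0.77 in edgeR). Adora2a was also higher in both HF sections, at 207 and 201 CPM in HF against 163 and 136 CPM in MF, while Drd2 overlapped, at 94.8 and 164 CPM against 122 and 81.8 CPM. Oprk1 was at 14.3 and 13.9 CPM in HF against 8.29 and 8.61 CPM in MF, a log2 fold change of 0.74 (SE 0.31, adjusted p = 0.72). These sums rest on 13 and 32 UMIs in HF and 32 and 14 UMIs in MF. Pdyn overlapped, at 82.7 and 61.8 CPM against 79.3 and 72 CPM, as did Drd1 and Tac1, the marker genes of its neurons. Pnoc had 7 to 45 UMIs per section here.

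In the cortex Oprk1 was the one gene of the 7 without overlap, and 33 of 12976 features (0.254%) were called and 37.5% did not overlap (16.5% above, 20.9% below). It was at 10.1 and 10.7 CPM in the HF sections and at 7.41 and 6.46 CPM in the MF sections, a log2 fold change of 0.57 (SE 0.19, adjusted p = 0.42 in edgeR). Leaving out each section in turn gave 0.50 to 0.70. Penk was at 53.1 and 63.1 CPM in HF against 60.3 and 62.1 CPM in MF, and Oprd1, which is highest in the cortex, at 21.1 and 21.2 CPM against 23 and 19.7 CPM.

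In the hippocampus Penk was at 37.1 and 37.9 CPM in HF against 51.5 and 48.2 CPM in MF, a log2 fold change of -0.41 (SE 0.13, adjusted p = 0.42 in edgeR), and from -0.45 to -0.35 when single sections were dropped. There 14 of 12383 features (0.113%) were called and 37.2% did not overlap (17.4% above, 19.8% below). Pdyn overlapped in the hippocampus, at 9.04 and 5.26 CPM in HF against 8.74 and 7.48 CPM in MF. In the dentate gyrus, where 9 of 10637 features (0.0846%) were called and 35.6% did not overlap (17.2% above, 18.4% below), Penk overlapped too, at 36.5 and 19.8 CPM against 33.8 and 47 CPM. Pnoc was at 14 and 13.6 CPM in HF against 11 and 13.3 CPM in MF there, from 15 to 23 UMIs per section. Pdyn was at 15 and 10.2 CPM against 14.3 and 14.2 CPM.

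In the thalamus 0 of 13403 features (0%) were called, with 724 at an unadjusted p under 0.05 and 4 called by DESeq2, and 36.6% did not overlap (20.5% above, 16.2% below). Penk was at 33 CPM in HF replicate 1 and at 59.6 to 61.7 CPM in the other 3 sections. Oprm1 was at 188 CPM in HF replicate 1 and at 126 to 145 CPM in the others. Pnoc was at 18.8 CPM in HF replicate 1 and at 24.1 to 30.3 CPM in the others. The relay thalamus of HF replicate 1 was also divided otherwise between clusters. It had 9 spots in the cluster led by Gbx2 and Endou, against 100 to 183 in the other sections. In the cluster led by Gbx2 and Slitrk6 it had 195 spots, against 11 to 80. In a coarser clustering, the cluster led by Gbx2 and Grid2ip held 292 of its spots, against 138 to 225. The part of this in the values was not tested. Without HF replicate 2 all 3 were called in edgeR, in a fit that called 1026 of 13592 features, with log2 fold changes of -0.89 for Penk (adjusted p = 3.3e-05), 0.45 for Oprm1 (adjusted p = 0.0018) and -0.46 for Pnoc (adjusted p = 0.04), and with both HF sections none was. Oprk1 was at 5.63 and 5.7 CPM in HF against 4.44 and 4.06 CPM in MF, a log2 fold change of 0.39 (SE 0.21, adjusted p = 0.87). Pdyn and Oprd1 were lower in both HF sections, at 4.94 and 3.76 CPM against 6.9 and 5.07 CPM and at 4.25 and 4.61 CPM against 5.29 and 5.48 CPM.

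In the hypothalamus all 3 precursor genes were lower in both HF sections, in a comparison where 0 of 13078 features (0%) were called, 853 had an unadjusted p under 0.05, DESeq2 called 4, and 37.6% did not overlap (20.4% above, 17.2% below). Pdyn was at 24 and 9.92 CPM in HF against 31.5 and 39.6 CPM in MF, a log2 fold change of -1.07 (SE 0.31, adjusted p = 0.74 in edgeR). Penk was at 113 and 146 CPM against 152 and 158 CPM, with -0.27 (SE 0.13, adjusted p = 0.77), and Pnoc at 34 and 29.8 CPM against 39.6 and 34.5 CPM, with -0.23 (SE 0.14, adjusted p = 0.79). With spots thinned to 5000 UMIs the value for Pnoc was 0.018. HF replicate 2, where Pdyn was lowest, is the section whose hypothalamus held Avp at 2585 CPM and Pmch at 1.56 CPM, against at most 3.8 CPM and at least 1524 CPM in the others, and the part of this in the values was not tested. The spots led by Agrp and Oxt, where Pdyn is high, numbered 130 and 71 (MF) and 45 and 17 (HF). With those spots left out, a choice made after seeing the data, Pdyn was at 16.8 and 8.22 CPM in HF against 19.5 and 28.5 CPM in MF and the log2 fold change was -0.95 (adjusted p = 0.79). Without HF replicate 1 the value over the whole hypothalamus was -1.83 (adjusted p = 5e-14) in a fit that called 671 of 13388 features, without HF replicate 2 it was -0.57 and not called, and without the filter on low counts it was -1.08 (adjusted p = 0.011). Penk was called without HF replicate 2, at -0.47 (adjusted p = 0.0081) in a fit that called 306 of 13401 features, and was at -0.091 without HF replicate 1. The receptor genes overlapped. Oprl1 was at 181 and 154 CPM in HF against 178 and 173 CPM in MF.

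**Figure D5:**
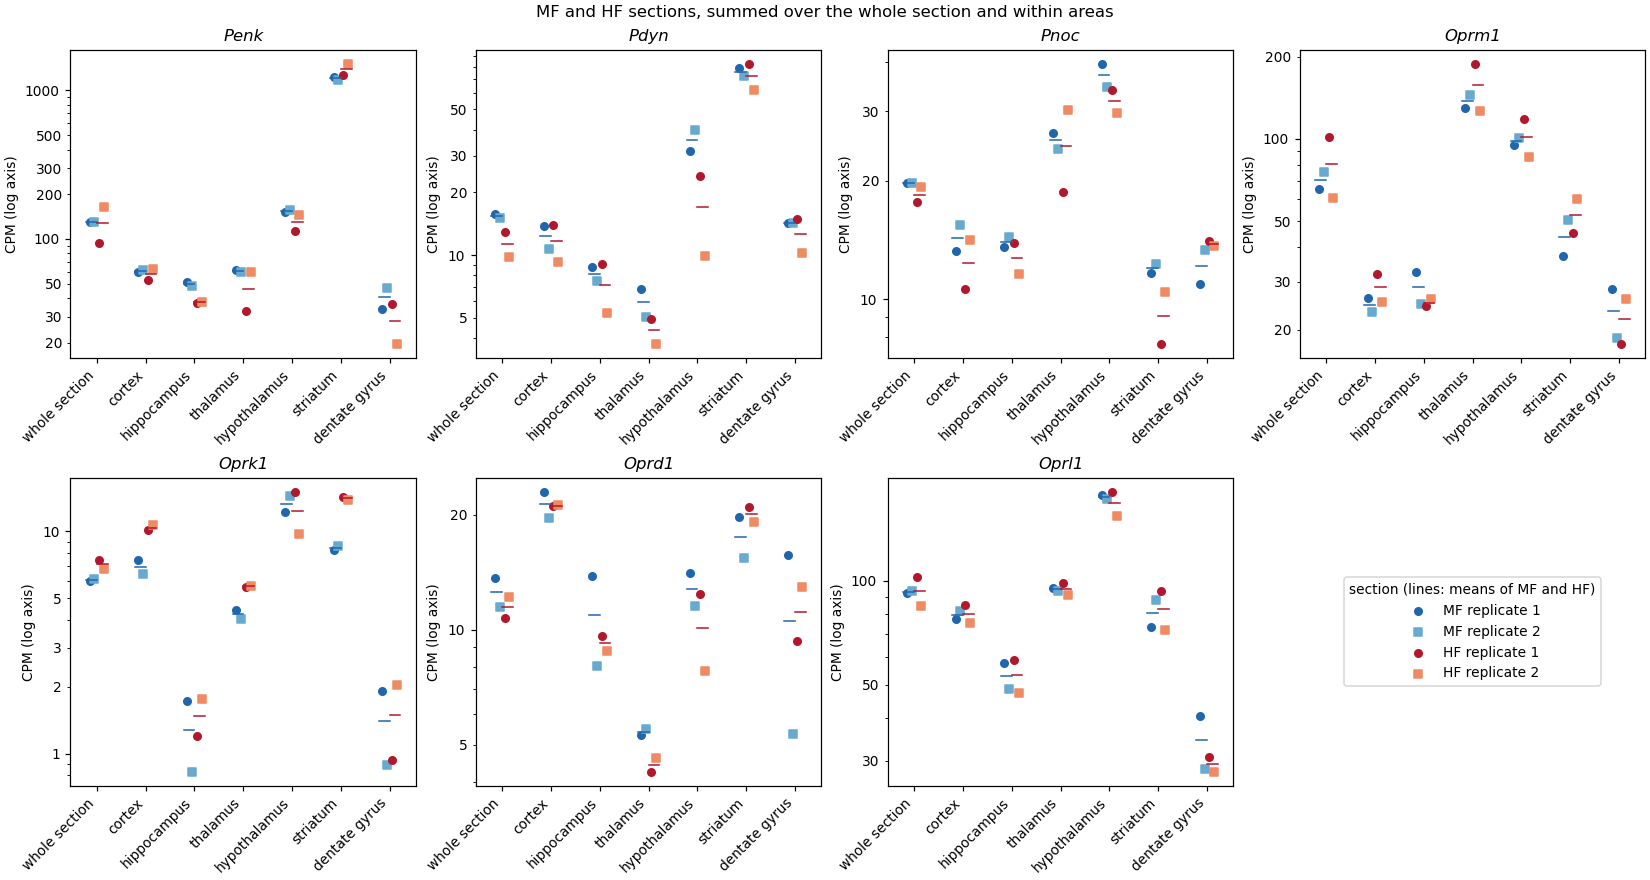
CPM of each gene in each section, summed over the whole section and within 6 areas (log axes); short lines are the MF and HF means. Oprk1 is higher in both HF sections in the whole section, cortex, thalamus and striatum, and overlaps in the hypothalamus. The whole section includes the other areas, and the Oprk1 sums of the striatum rest on 13 to 32 UMIs. Pdyn is lower in both HF sections in the hypothalamus. In these comparisons 35.7% to 39.6% of all features did not overlap, and none of the 7 genes was called.

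A test of whether the difference between diets itself differed between the cortex, hippocampus, thalamus, hypothalamus and striatum was passed by 2 of 13738 features (0.0146%) and by none of the 7 genes. The adjusted p in edgeR was 0.28 for Penk, 0.51 for Pdyn and 0.884 to 0.998 for the others, and 0.00028 was the unadjusted p for Penk. Without the filter on low counts the adjusted p was 1.9e-06 for Penk and 0.00057 for Pdyn, and with areas from a coarser clustering 0.031 for Pdyn.

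The other genes of the pathway were not called in any comparison either. Over the whole section 2 of 6 genes of precursor processing had a fitted value above 0 in HF, 4 of 7 of peptide breakdown, 13 of 16 of receptor signalling and 9 of 10 of receptor regulation, with 0 called in either direction. The medians were -0.043, 0.0053, 0.071 and 0.063 on the log2 scale, beside 0.002 over all features tested. In the striatum the counts above 0 were 2 of 6, 1 of 6, 9 of 15 and 8 of 10 of the genes tested, with medians of -0.069, -0.10, 0.023 and 0.08 beside 0.0025 over all features.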

How the data were processed

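Probe-based Visium-FFPE libraries of 4 coronal sections were analysed, 2 per diet, with groups and replicate numbers from the labels. The authors made the deposited files with Space Ranger and the mm10 build, with no version in the labels, and analysed them with Seurat. The counts are raw UMI counts per feature and spot as deposited, without normalization. Per the file headers, Moran's I is a score by feature and section. The other columns were not used here, and the authors' comparisons are not reported.

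Following the study, a spot needed at least 500 UMIs and at least 250 detected genes. Clustering used 2000 variable genes scaled within each section, 30 principal components, 20 neighbours and Leiden resolution 2 (leidenalg 0.10.2), and gave 42 clusters. The 7 genes, the pathway lists and the landmark genes (such as Avp and Adora2a) were kept out of these variable genes. They could still be among the leading genes used to name clusters, and some landmark genes were themselves markers. A cluster was named where at least 3 markers of a fixed list were among its 50 leading genes. No name was given where another list tied with it or led the first genes, or where spots were shallow. Clusters without a name carry their 2 leading genes. Those led by Trbc2 and Nxph3 and by Agrp and Oxt held 4 and 6 markers of 1 list, but another list led their first genes. Choroid plexus was named but had under 10 spots in 1 section. Spots hold several cells, so area names describe likeness to marker profiles. Gene positions are from GENCODE vM21.

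UMIs were summed per section and area and tested with edgeR 4.0.16 (R 4.3.3; TMM, filterByExpr, glmQLFTest), adjusted over all features. The study's own test over single spots was not used, since spots of 1 section are not replicates. Whether the 2 sections of a diet share a litter is not given, so p-values measure the spread between sections. SE is the log2 fold change over the root of F. Intervals of spot shares are exact and cover counting error only. On simulated data with 2-fold changes in 100 genes, edgeR recovered 96% over the whole section with 14971 genes, 86% in the hypothalamus and 81% in the striatum. DESeq2 recovered 86%, 72% and 51%. Every simulated gene was given the same spread between sections, and all sections the same starting profile. The rates therefore do not cover genes that vary more, or sections that hold other tissue, as HF replicate 2 did in the hypothalamus. Alternatives were DESeq2 1.42.0, no filter on low counts, spots thinned to 5000 UMIs (2687 to 3589 spots per section had enough), Leiden resolution 1, a replicate block and each section left out. All 7 genes and the pathway lists were named whatever their values; the genes and lists were chosen with earlier results of these data known. Some cluster values are not reported here.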

Additional observations from a re-analysis of the deposited data

How the results depend on the processing

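There were 2 sections per diet, and changes under 2-fold, or in genes as sparse as Oprk1, were not simulated on their own. The log2 ratio of each gene in its leading area kept its direction and passed the F-test over areas in all 48 pairs of a gene and an alternative fit. That area was chosen as the highest in these same data, so the direction could hardly change. In the main fit 95% of all features passed the F-test as well. Between diets the counts of genes called were not stable, and the cause was not tested. With DESeq2 they were 22 in the whole section, 16 in the cortex, 4 in the thalamus, 4 in the hypothalamus, 3 in the striatum and 1 in the dentate gyrus. Without the filter on low counts they were 5, 105 (cortex), 108 (hippocampus), 16, 50, 28 and 46, and 1 of the 7 genes, Pdyn in the hypothalamus, was called. In that fit of the area by diet terms the adjusted p was 1.9e-06 for Penk and 0.00057 for Pdyn, and with Leiden resolution 1 it was 0.031 for Pdyn. With spots thinned to 5000 UMIs, 1 gene was called in the whole section, 4 in the hippocampus, 1 in the thalamus, 3 in the striatum and 1 in the dentate gyrus.

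Replicate numbers did not pair the sections: the deviations of sections with the same number correlated at -0.17 (thalamus) to 0.044 (hippocampus). With a replicate block, calls numbered 80 in the cortex, 60 for the hippocampus, 6 in the thalamus, 15 in the hypothalamus, 11 in the striatum and 31 in the dentate gyrus, and none of the 7 genes. With a crossed replicate block, chosen after seeing the data, 11 genes were called in the whole section, 4 in the thalamus, 130 in the hypothalamus (1 of the 7 genes among them) and 47 in the striatum.

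Leaving out 1 section at a time gave 0 to 1166 genes called in the whole section, 23 to 723 for the cortex, 7 to 465 for the hippocampus, 0 to 1026 in the thalamus, 0 to 671 in the hypothalamus, 11 to 183 in the striatum and 5 to 109 in the dentate gyrus. The 7 genes gave 0 to 2 calls in the whole section, 0 to 3 in the thalamus and 0 to 1 in the hypothalamus, all without an HF section. The lone section is then assumed to vary like the others.

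Some log2 fold changes changed sign, most of them close to 0 at the start. With DESeq2 that of Oprl1 in the hippocampus was 0.0012 and that of Oprd1 in the dentate gyrus 0.051. With spots thinned, Pnoc was at 0.050 in the whole section, 0.17 in the cortex, 0.11 in the thalamus and 0.018 in the hypothalamus, Penk at 0.056 in the whole section, Oprm1 at 0.39 in the hippocampus, Oprl1 at 0.0088 in the thalamus and Oprd1 at -0.14 in the striatum. With the replicate block Oprl1 was at 0.013 in the hippocampus and Oprd1 at 0.079 in the dentate gyrus. With Leiden resolution 1, Oprl1 was at 0.0049 in the thalamus, Oprk1 at 0.0058 in the hypothalamus, and Pdyn and Oprd1 at 0.063 and -0.077 in the striatum.

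With sections left out in turn, the ranges that crossed 0 in the whole section were -0.49 to 0.35 for Penk, -0.21 to 0.50 for Oprm1 and -0.14 to 0.12 for Oprl1. In the cortex they were -0.19 to 0.062 for Penk, -0.46 to 0.13 for Pdyn, -0.39 to 0.030 for Pnoc, -0.11 to 0.12 for Oprd1 and -0.057 to 0.11 for Oprl1. In the hippocampus they were -0.64 to 0.12 for Pdyn, -0.23 to 0.0039 for Pnoc, -0.35 to 0.023 for Oprm1, -0.58 to 0.20 for Oprd1 and -0.17 to 0.13 for Oprl1. In the thalamus they were -0.46 to 0.23 for Pnoc, -0.13 to 0.45 for Oprm1 and -0.069 to 0.048 for Oprl1. In the hypothalamus they were -0.19 to 0.25 for Oprm1, -0.44 to 0.18 for Oprk1 and -0.19 to 0.027 for Oprl1. In the striatum they were -0.31 to 0.11 for Pdyn and -0.12 to 0.25 for Oprl1. In the dentate gyrus they were -0.47 to 0.072 for Pdyn, -0.47 to 0.25 for Oprm1, -0.45 to 1.08 for Oprd1 and -0.46 to 0.041 for Oprl1. The values of Oprk1 in the whole section, cortex, thalamus and striatum stayed above 0 in these fits. Those of Pdyn in the whole section, thalamus and hypothalamus stayed below 0. In each of these comparisons both HF sections lay on the same side of both MF sections, as was true of 35.7% to 39.6% of all features. Leaving out a section could therefore hardly change the sign. Other values kept their sign too, such as those of Penk in the hippocampus and of Pnoc in the hypothalamus.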
